A study of Homo sapiens with 2 samples.

Results

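The genes described here are 5 that encode cold shock domain proteins, YBX1, YBX2, YBX3, CARHSP1 and LIN28B. They were taken by gene symbol from the deposited gene table, which lists 27685 genes, and all 5 were found. The cells were NCI-H838, a cell line derived from a human adenocarcinoma of the lung, and RNA was taken 48 hours after transient transfection with a lipid reagent. The LINC00472 library came from cells given a pCDH plasmid that carries the full-length long noncoding RNA LINC00472, and the control library from cells given the empty pCDH plasmid. With 1 library per group there is no replicate against which to check a difference, and no p-value is given. How many of the cells took up plasmid is not given in the sources used here, and in bulk RNA fewer cells expressing a gene and less RNA per cell cannot be told apart.

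The cold shock domain is a small nucleic acid-binding fold shared with the cold shock proteins of bacteria. Y-box proteins carry it and coat messenger RNAs in cytoplasmic ribonucleoprotein particles, where they affect translation and stability, and they also bind DNA with the inverted CCAAT sequence called the Y box. YBX1 encodes YB-1, the main Y-box protein of most cultured and tumour cells. YBX2 is known mainly from germ cells, and YBX3 encodes a Y-box protein that also associates with tight junctions. CARHSP1 is a small phosphoprotein that binds messenger RNA, and LIN28B joins a cold shock domain to zinc knuckles and blocks maturation of the let-7 microRNAs.

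Summed over genes, counts came to 21093055 in the LINC00472 library, where 18238 genes had a count, against 54823706 in the control library, where 18910 genes had one. LINC00472 itself had 5655 counts in the LINC00472 library, against 2563 in the control library, a ratio of 4.69-fold after scaling. Of 6 epithelial markers, the keratins were lower in the LINC00472 library, while CDH1 and EPCAM did not reach 2-fold. KRT18 had 822 counts in the LINC00472 library, against 13046 in the control library, and KRT8 had 1153 in the LINC00472 library, against 9714 in the control library. KRT7 had 481 counts in the LINC00472 library, against 3591 in the control library, and KRT19 had 0 in the LINC00472 library, against 44 in the control library. CDH1 had 239 counts in the LINC00472 library, against 368 in the control library. EPCAM had 48 counts in the LINC00472 library, against 117 in the control library. Of the lung lineage markers, NKX2-1 and SFTPB had 0 counts in both libraries and NAPSA had 88 in the LINC00472 library, against 66 in the control library. Among 9 markers of immune cells, fibroblasts and endothelium, 5 (PTPRC, CD3E, DCN, PECAM1 and CDH5) had 0 counts in the LINC00472 library and at most 32 in the control library. CD14 had 299 counts in the LINC00472 library, against 256 in the control library, and COL1A1 had 237 in the LINC00472 library, against 458 in the control library. PDGFRB had 16 counts in the LINC00472 library, against 60 in the control library, and VWF had 35 in the LINC00472 library, against 48 in the control library. These marker counts are not scaled, and the control library was deeper. Scaled log2 ratios were 1.49 for NAPSA, 1.31 for CD14, 0.63 for VWF, 0.47 for CDH1 and 0.14 for COL1A1. Those of EPCAM and PDGFRB were -0.19 and -0.81. The part of these marker differences, or of the difference in depth, in the results below was not tested.

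Y-box proteins are named for the inverted CCAAT box, so the promoters of the 5 genes were searched for it. The YBX1 and YBX2 promoters are shown because these genes had the lowest and the highest ratio of the 5. Each run is the 250 bases before the RefSeq start (build GRCh38.p14), 5′ to 3′ on the gene's strand, and capitals mark CCAAT or its complement ATTGG. The YBX1 window lies at chr1:42682168-42682417 on the plus strand and the YBX2 window at chr17:7294640-7294889 on the minus strand.
YBX1: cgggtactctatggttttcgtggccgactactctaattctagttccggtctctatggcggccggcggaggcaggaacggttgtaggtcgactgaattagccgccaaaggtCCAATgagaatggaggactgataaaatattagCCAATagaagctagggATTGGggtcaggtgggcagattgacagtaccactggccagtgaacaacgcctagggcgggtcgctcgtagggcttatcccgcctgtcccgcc
YBX2: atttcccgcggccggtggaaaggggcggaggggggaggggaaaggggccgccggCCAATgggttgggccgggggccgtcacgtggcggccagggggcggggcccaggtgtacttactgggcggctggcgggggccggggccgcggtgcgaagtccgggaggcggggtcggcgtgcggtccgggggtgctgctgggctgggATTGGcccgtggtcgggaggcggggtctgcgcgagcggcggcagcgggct
The YBX1 window held 3 matches, beginning 140, 108 and 92 bases before the start. The YBX2 window held 2, the YBX3 window 1, and LIN28B held 1 in 1 of its 2 windows. None of the 5 windows of CARHSP1 held a match. Of 35116 RefSeq windows of the same length, 32.0% held CCAAT on either strand. The longer Y-box core CTGATTGG, which contains ATTGG, was in 3.81% of those windows and in none of the windows of the 5 genes.

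Mature let-7 microRNAs are shown because LIN28B acts on their precursors. The seed (bases 2 to 8) is in capitals, and all 12 loci shared it. Of the 9 distinct sequences, 4 are printed from RefSeq.
hsa-let-7a-5p: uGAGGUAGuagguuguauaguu
hsa-let-7f-5p: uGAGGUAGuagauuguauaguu
hsa-let-7i-5p: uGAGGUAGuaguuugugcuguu
hsa-miR-98-5p: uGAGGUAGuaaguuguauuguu
LIN28 proteins contact GGAG in the loop of the precursor. Of 12 let-7 hairpins, 9 held GGAG between the mature arms, or after the 5′ arm where no 3′ arm is listed. MIRLET7F1, on chromosome 9, held it (capitals), and MIR98, on chromosome X, did not.
MIRLET7F1: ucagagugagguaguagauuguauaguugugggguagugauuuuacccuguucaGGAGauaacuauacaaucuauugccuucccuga
MIR98: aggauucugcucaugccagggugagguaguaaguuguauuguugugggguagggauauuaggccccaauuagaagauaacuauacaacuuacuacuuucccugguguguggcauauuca

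YBX1 was lower in the LINC00472 library, with the lowest log2 ratio of the 5 genes. CARHSP1 was lower as well, close to the limit used. YBX2, barely detected, was higher, and YBX3 and LIN28B did not reach a 2-fold ratio. A gene is called lower or higher where its mean level was at least 1 CPM (a gene's count relative to the scaled library size), its ratio at least 2-fold and its 95% counting interval excluded equality. All 5 genes passed the minimum, and 2 were called lower, 1 higher and 2 neither. Of all 14012 genes at the minimum, 23.8% were called lower and 16.3% higher. Among the 12320 protein-coding genes there, 26.3% were lower and 11.2% higher. Scaled by upper quartile factors, 1 of the 5 was lower and 1 was higher, where 15.6% of protein-coding genes were lower and 19.3% higher. Read against these backgrounds, the calls of 5 genes do not set the group apart. The median log2 ratio was -0.80 for the 5 genes, against -0.19 for all genes and -0.32 for protein-coding genes at the minimum.

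YBX1 (NCBI gene ID 4904) had 2703 counts in the LINC00472 library, against 27859 in the control library. The scaled level was 116 CPM in the LINC00472 library, against 562 CPM in the control library, a ratio 4.84-fold lower in the LINC00472 library (log2 ratio -2.28, 95% counting interval -2.33 to -2.22). Such intervals reflect counting error alone, and sequenced reads need not be separate molecules. Of all genes at the minimum, 2.29% had a lower log2 ratio than YBX1, so it lay in the lower tail of the comparison but not at its end. By deposited FPKM (read fragments relative to transcript length and library size) it stood at 36.4 in the LINC00472 library, against 155 in the control library. Its rank by FPKM among protein-coding genes was 1436 in the LINC00472 library, against 346 in the control library.

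**Figure D1:**
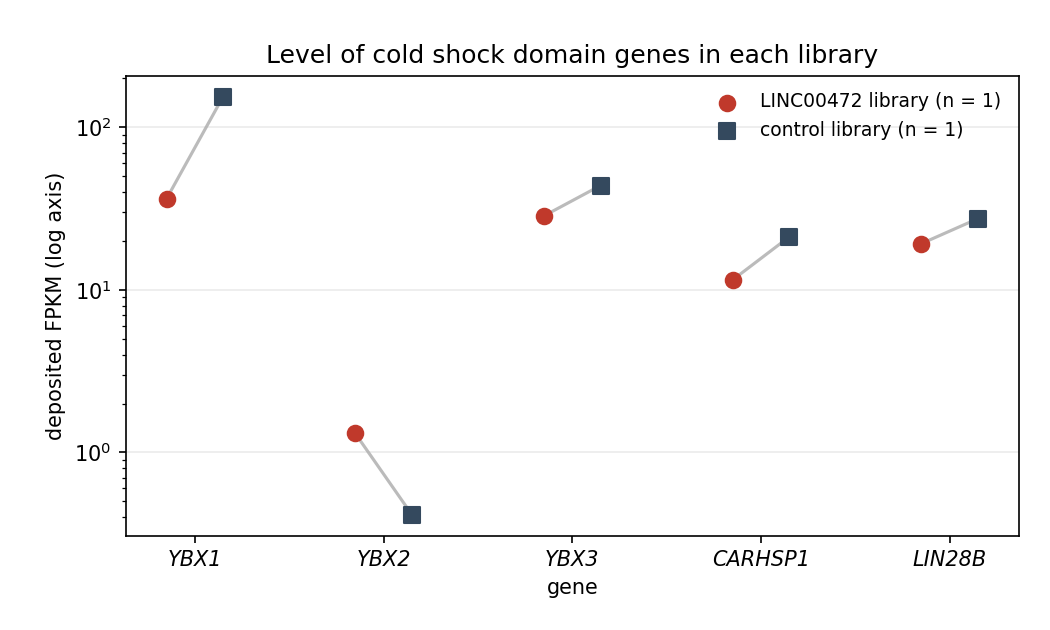
Deposited FPKM (log axis) of the 5 genes in the LINC00472 library (circles) and the control library (squares), 1 library each, with a line joining the values of a gene. YBX1, at 36.4 in the LINC00472 library, against 155 in the control library, has the steepest line, and YBX2, at 1.31 in the LINC00472 library, against 0.415 in the control library, is the one gene that is higher in the LINC00472 library.

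YBX1 reads can be shared with copies of the gene. RefSeq lists 10 YBX1 pseudogenes, and 0 of them are in the deposited table, so reads from them cannot be told apart from those of YBX1. No other annotated gene overlapped YBX1 in GENCODE 29. The transcripts of YBX1 matched there measure 1514 and 1524 nt, while the deposited counts and FPKM together imply a length of 3157 nt in the LINC00472 library, against 3158 nt in the control library. An implied length over 1.5 times the longest matched transcript was found for 2.99% of 12355 genes. Which length applies was not tested, so the level of YBX1 beside other genes depends on it, while the implied lengths in the LINC00472 and control libraries were nearly equal. On counts per kilobase of the longest matched transcript, YBX1 stood at 76.1 CPM per kb in the LINC00472 library, against 369 in the control library.

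YBX3 (8531), the paralog closest to YBX1 in level, had 1289 counts in the LINC00472 library, against 4773 in the control library. Its FPKM was 28.6 in the LINC00472 library, against 43.9 in the control library. The log2 ratio was -0.80 (interval -0.89 to -0.71), short of 2-fold, and 29.9% of genes at the minimum had a lower ratio. YBX3 has 1 pseudogene in RefSeq, which the deposited table lists with 0 counts in both libraries.

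YBX2 (51087) was the single gene of the 5 with more reads in the shallower library, at 49 counts in the LINC00472 library, against 38 in the control library. Its FPKM was 1.31 in the LINC00472 library, against 0.415 in the control library, so it stayed near the detection minimum in both. The log2 ratio was 1.44 with a wide interval of 0.82 to 2.11, a 2.71-fold higher level. Of all genes at the minimum, 90.6% had a lower ratio, and its mean of 1.43 CPM would not pass a minimum of 5 CPM. Its annotated span overlaps SLC2A4 on the opposite strand, which had 0 counts in the LINC00472 library, against 6 in the control library. With FPKM and 0.5 added, the log2 ratio of YBX2 was 0.98 and the gene was not called.

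CARHSP1 (23589) had 743 counts in the LINC00472 library, against 3441 in the control library. Its FPKM was 11.5 in the LINC00472 library, against 21.2 in the control library. The log2 ratio of -1.12 (interval -1.24 to -1.01) made it 2.18-fold lower, just past the limit. It was no longer called with total-count scaling (-0.83) or upper quartile factors (-0.73). Antisense transcripts are annotated over it, and reads of opposite strands cannot be separated here, because a strand setting is not given in the sources used here.

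LIN28B (389421) had 2493 counts in the LINC00472 library, against 8606 in the control library. Its FPKM was 19.3 in the LINC00472 library, against 27.5 in the control library. The log2 ratio was -0.70 (interval -0.76 to -0.63), so LIN28B did not reach 2-fold. It is the longest transcript of the 5, at 5505 nt, with the lowest GC content, 38.1%. After adjustment for these transcript properties and for the length of introns, its log2 ratio was -1.28, past the limit, while that of YBX2 was 2.0, YBX1 -1.89, CARHSP1 -0.93 and YBX3 -0.47. LIN28B-AS1, an overlapping gene on the opposite strand, had 12 counts in the LINC00472 library, against 28 in the control library.

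**Figure D2:**
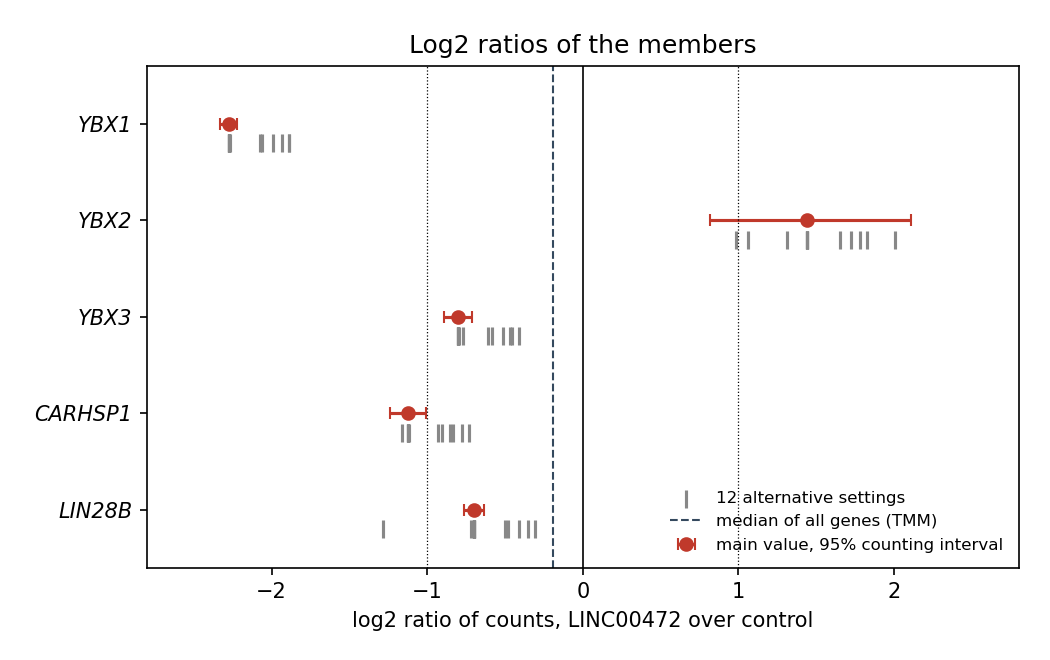
Log2 ratio of TMM-scaled counts, LINC00472 over control, for the 5 genes (dots) with 95% counting intervals (bars). Ticks are the values under 12 alternative settings, dotted lines mark 2-fold and the dashed line the median of all genes at -0.19. YBX1 stays below 2-fold lower under each setting, while the ticks of YBX2, CARHSP1 and LIN28B lie on both sides of a limit.

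By FPKM the order of levels was YBX1, YBX3, LIN28B, CARHSP1 and YBX2 in both libraries, but the gap at the top differed. YBX1 was 1.27 times YBX3 by FPKM in the LINC00472 library, against 3.53 times in the control library. By counts per kilobase YBX1 kept the top rank in both as well. YBX1 made up 54.9% of the summed FPKM of the 3 Y-box genes in the LINC00472 library, against 77.8% in the control library. YBX3 made up 43.1% in the LINC00472 library, against 22.0% in the control library, and YBX2 1.97% in the LINC00472 library, against 0.208% in the control library. By counts per kilobase the YBX1 share was 70.3% in the LINC00472 library, against 87.2% in the control library. The summed FPKM of the 3 Y-box genes was 66.3 in the LINC00472 library, against 199 in the control library.

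Ratios between genes within a library do not depend on how the libraries are scaled, and they separated YBX1 from the rest. There were 2.1 YBX1 reads per YBX3 read in the LINC00472 library, against 5.84 in the control library. The difference in log2 ratio, YBX1 minus YBX3, was -1.48 (95% counting interval -1.58 to -1.37). YBX1 lay below CARHSP1 by a log2 difference of -1.15 (-1.28 to -1.02) and below LIN28B by -1.58 (-1.66 to -1.49). YBX2 lay above YBX3 by 2.26 (1.61 to 2.91). For CARHSP1 minus LIN28B the difference was -0.42 (-0.56 to -0.29). YBX3 and LIN28B differed least, at -0.10 (-0.21 to 0.01). Of 10 pairs, 9 had an interval that excluded 0, in terms of counting error alone.

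**Figure D3:**
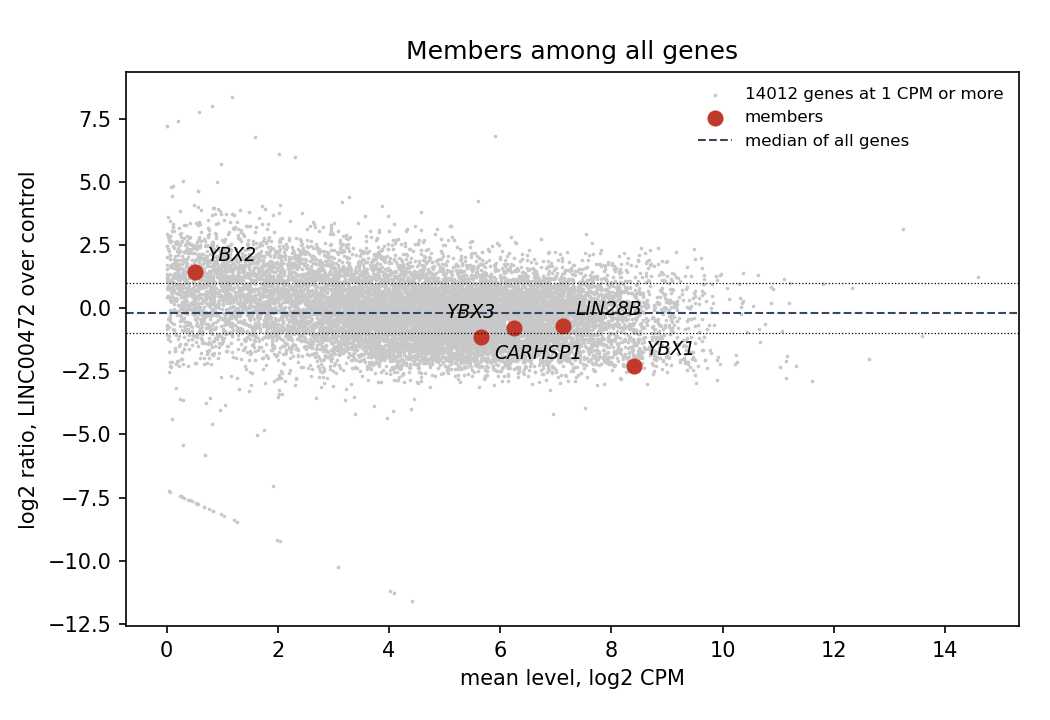
Log2 ratio of counts, LINC00472 over control, against mean level (log2 CPM) for 14012 genes at 1 CPM or more (grey), with the 5 genes in red. YBX1 lies low among abundant genes with a log2 ratio of -2.28, though some of these, such as ACTB (-2.87) and ACTG1 (-2.98), lie lower. YBX2 lies at 1.44 among scarce genes where ratios spread widely, and the other 3 lie inside the cloud.

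Genes at the same levels in both libraries were found by distance in log2(FPKM + 0.5) among protein-coding genes at the minimum, over 2 libraries. Nearest to YBX1 were TKT (distance 0.090), HIST1H4J (0.107) and MRPL51 (0.112), with FPKM in the LINC00472 library of 38.4, 36.9 and 37.7. HIST1H4J is a near-identical histone copy, so its counts are uncertain. Within a distance of 0.2 there were 15 genes around YBX1, 74 around YBX3, 121 around CARHSP1, 132 around LIN28B and 50 around YBX2. Nearest to YBX3 were CPT1A, CAST and RDH11, nearest to CARHSP1 were FHL1, YEATS4 and CAP2, and nearest to LIN28B were SYS1, SDAD1 and DNAJC11. ASIC1, DNM3 and SULT4A1 were nearest to YBX2. With 2 libraries such a match says only that the 2 levels were alike.

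Among further genes with a cold shock domain, CSDC2 had 27 counts in the LINC00472 library, against 25 in the control library. LIN28A, the paralog of LIN28B, had 8 in the LINC00472 library, against 3 in the control library. Neither CSDC2 nor LIN28A reached the minimum level.

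Proteins that share messenger ribonucleoprotein particles with YB-1 formed a list of 32 genes, all at the minimum. Of these, 11 were lower and 0 higher, with a median log2 ratio of -0.73, against -0.19 for all genes and -0.32 for protein-coding genes. Of all genes 23.8% were lower and 16.3% higher, and of protein-coding genes 26.3% were lower and 11.2% higher. Upper quartile scaling gave 6 lower and 1 higher call in the list, where 14.2% of all genes were lower and 25.1% higher. The lowest were EIF4A1, the helicase of translation initiation (log2 ratio -2.01, 6478 counts in the LINC00472 library, against 55657 in the control library), the poly(C)-binding protein PCBP1 (-1.73) and ELAVL1, a binder of AU-rich elements (-1.60). YBX1 had a lower log2 ratio than each of the 32. Among the highest were PURA (0.59) and MSI2 (0.31), RNA-binding proteins that did not reach 2-fold.

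Enzymes that modify YB-1 or carry it into the nucleus were described by 9 genes, 8 of them at the minimum, of which 3 were lower and 0 higher, where 23.8% of all genes were lower and 16.3% higher. The kinase RPS6KA1, which phosphorylates YB-1 in its cold shock domain, had a log2 ratio of -1.30, AKT1 of -1.11 and the arginine methyltransferase PRMT5 of -1.36. None of these 3 was called with upper quartile factors. AKT2 (-0.60), RPS6KA3 (-0.42), the import receptor TNPO1 (-0.42) and the F-box protein FBXO33 (-0.36) did not reach 2-fold. RBBP6, a ubiquitin ligase that acts on YB-1, was at 0.92 and was called higher with upper quartile factors. RPS6KA2 had 1 count in the LINC00472 library, against 9 in the control library, below the minimum.

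Genes reported elsewhere as regulated by YB-1 were called lower in a share near that of all genes, which was 23.8%. Of 21 in the list, 18 were at the minimum, 5 were lower and 0 higher. Of all genes 16.3% were higher, and of protein-coding genes 26.3% were lower and 11.2% higher. The median log2 ratio of the list was -0.29, against -0.19 for all genes and -0.32 for protein-coding genes. Upper quartile scaling gave 3 lower and 2 higher calls, where 14.2% of all genes were lower and 25.1% higher. The lowest were the licensing factor CDC6 (-2.07), the sliding clamp PCNA (-1.98) and the stress granule protein G3BP1 (-1.41). CDC6 had 1293 counts in the LINC00472 library, against 11537 in the control library. The highest were the receptor EGFR (0.87), the repressor ZEB2 (0.69) and the death receptor FAS (0.53), which did not reach 2-fold. TWIST1 had 0 counts in both libraries, MMP2 had 0 in the LINC00472 library, against 6 in the control library, and ABCB1 had 0 in the LINC00472 library, against 3 in the control library.

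Protein-coding genes with and without a Y-box core in the promoter had similar shares of calls, given here as a description with no test. Of 647 with CTGATTGG on either strand within 250 bases before a start, 28.4% were lower and 11.1% higher, with a median log2 ratio of -0.29. Of 9509 without it, 26.4% were lower and 11.0% higher, and their median was -0.33. For CCAAT on either strand the medians were -0.32 in 4262 genes with it and -0.33 in 5894 without it. A match describes the letters in the window and says nothing of binding.

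**Figure D4:**
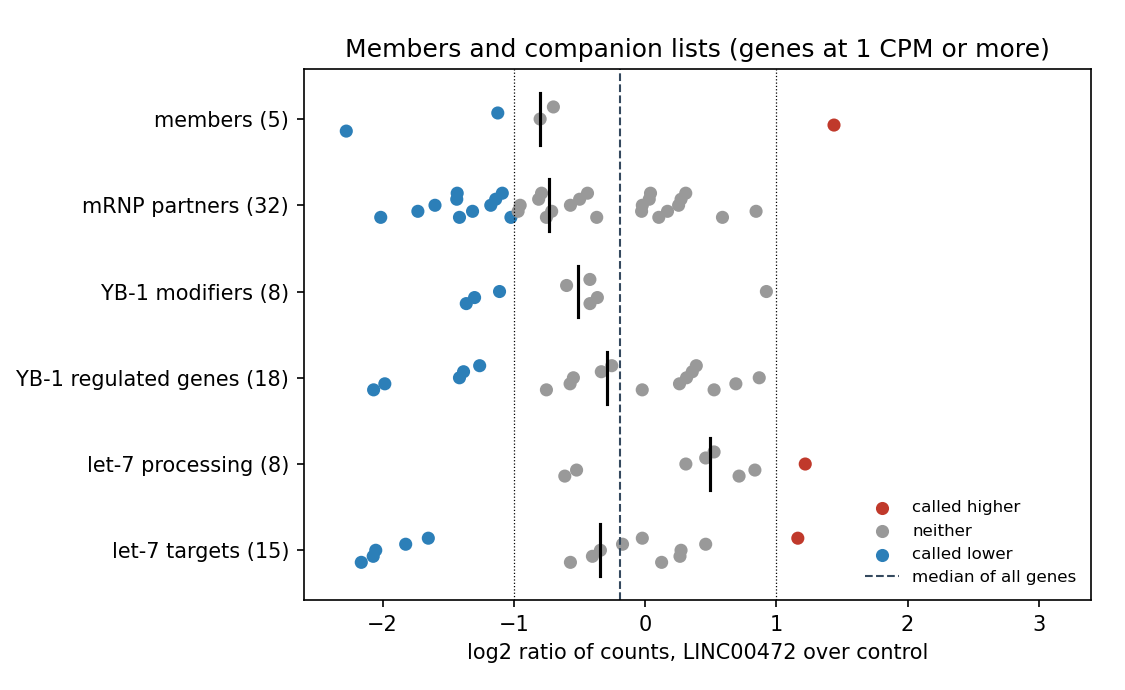
Log2 ratio of counts, LINC00472 over control, for each gene at 1 CPM or more in the 5-gene set and in 5 companion lists, coloured by call, with list medians as black bars and the number of genes in parentheses. The 32 messenger ribonucleoprotein genes have a median of -0.73, with 11 called lower, and the median of the let-7 processing genes, 0.49, is the one to the right of the median of all genes (dashed line, -0.19).

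On the LIN28B side, the let-7 loci shown above were scarcely read. The 12 hairpin loci had 78 unscaled counts together in the LINC00472 library, against 55 in the deeper control library. MIRLET7F1, the most abundant and named after its values were seen, had 30 counts in the LINC00472 library, against 18 in the control library, and MIR98, also named after its values were seen, had 10 in the LINC00472 library, against 4 in the control library. None of the 12 reached a mean of 1 CPM over the LINC00472 and control libraries, and reads on a hairpin in this kind of library do not measure the mature microRNA. MIRLET7BHG, the host transcript of let-7 genes on chromosome 22, had 399 counts in the LINC00472 library, against 761 in the control library, a log2 ratio of 0.16 (interval -0.02 to 0.33).

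Genes that process let-7 precursors or act with LIN28 proteins formed a list of 8. Of these, 1 was higher and 0 lower, where 16.3% of all genes were higher and 23.8% lower. Their median log2 ratio was 0.49, against -0.19 for all genes and -0.32 for protein-coding genes. The uridylyltransferase ZCCHC11 (TUT4), which acts on let-7 precursors, was higher with a log2 ratio of 1.22 (interval 1.16 to 1.28). It had 4462 counts in the LINC00472 library, against 4073 in the control library. With upper quartile factors 3 of the 8 were higher, where 25.1% of all genes were higher and 14.2% lower. ZCCHC11 was not called after adjustment for transcript properties (0.68). Its relative ZCCHC6 (TUT7) was at 0.72, and the nuclease DIS3L2, which degrades uridylated let-7 precursors, at 0.53. The processing enzymes DROSHA (0.84) and DICER1 (0.46) and the ubiquitin ligase TRIM25 (0.31) did not reach 2-fold. DGCR8, the partner of DROSHA, was at -0.52 and the export receptor XPO5 at -0.61.

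Messenger RNAs that carry let-7 sites formed a list of 17, with 15 at the minimum. Of these, 5 were lower and 1 higher, where 23.8% of all genes were lower and 16.3% higher. Their median log2 ratio was -0.34, against -0.19 for all genes and -0.32 for protein-coding genes. The lowest were the chromatin protein HMGA1 (-2.16), the phosphatase CDC25A (-2.07) and MYC (-2.05). HMGA1 had 986 counts in the LINC00472 library, against 9390 in the control library. IGF1R, a growth factor receptor, was the 1 higher call, with a log2 ratio of 1.16, which was 0.45 after adjustment for transcript properties. Next came DICER1 (0.46) and IGF2BP2 (0.27). LIN28A and TRIM71 were below the minimum, TRIM71 with 5 counts in the LINC00472 library, against 0 in the control library.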

How the data were processed

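The sample titles gave the groups, with 1 library in each. Per the file headers, the authors deposited raw read counts for every gene. They also deposited FPKM values. Per the submitters' processing notes, the build was hg19 and the tools, with no stated role, were StringTie 1.3.4b, HISAT2 2.1.0, bcl2fastq 2.20.0 and Trimmomatic. The counting method is not given in the sources used here. Counts were identical for 27685 genes between the joint and single-library tables. They were scaled with TMM factors (1.11 for LINC00472, 0.905 for control) in edgeR 4.0.16 under R 4.3.3, fitted on all genes. Log2 ratios used a prior count of 0.5, and intervals are exact conditional (Clopper-Pearson) 95% intervals. Differences between genes are odds ratios of counts with exact conditional intervals. With 21093055 and 54823706 counts these are narrow, except for genes such as YBX2.

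The members and lists were chosen with earlier results of these data known. Text names all members of lists of up to 10 genes, otherwise the 3 highest and 3 lowest at the minimum, and the 3 nearest genes to each of the 5. A few genes the rule would name were left out of the text. Gene types came from RefSeq (99.5% of IDs matched) and transcript properties from GENCODE 29 (96.2% of genes at the minimum), adjusted with splines (5 knots, degree 3) in scikit-learn 1.9.0 over 13480 genes. Implied lengths are counts over FPKM, calibrated on 4555 genes with 1 transcript. RefSeq sequences are of GRCh38.p14, and no coordinates of the hg19 files were used. Alternatives included DESeq2 1.42.0 size factors. Other software was matplotlib 3.10.9, scipy 1.17.1, pandas 2.3.3 and numpy 2.4.6 under Python 3.11.15.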

Additional observations from a re-analysis of the deposited data

How the results depend on the processing

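No paired analysis was possible because each group held 1 library, and no library could be left out. Over 12 alternatives YBX1 stayed lower, at log2 ratios between -2.28 and -1.89, though some of them could not move its ratio. The identical counts of the single-library tables and a changed minimum level leave the YBX1 ratio as it was. The value was -1.99 with total counts, -1.89 with upper quartile factors, -2.06 with TMM factors from protein-coding genes, -1.93 with totals without the 100 most abundant genes, -2.08 with FPKM and 0.5 added, and -1.89 after adjustment for transcript properties. By construction the settings that change only the scaling of the libraries shift all genes together. The median of all genes was -0.19 with TMM, 0.11 when total counts were used and 0.21 under upper quartile factors. FPKM and the adjustment for transcript properties do not shift all genes together. Of the 5 genes, 1 was called lower in place of 2 with total counts, upper quartile factors, TMM factors from protein-coding genes, totals without the 100 most abundant genes, and FPKM, in each case because CARHSP1 missed the limit. After adjustment 2 were lower, YBX1 and LIN28B. YBX2 was not called with FPKM or at a minimum of 5 CPM, which left 0 higher. Calls on FPKM used the fold alone, with no counting interval. YBX3 was called under none of the 12 and ran from -0.80 to -0.41. Over all genes, upper quartile factors gave 1993 lower and 3531 higher, totals without the 100 most abundant genes gave 2142 lower and 3510 higher, no minimum gave 3657 higher and a minimum of 5 CPM gave 1347 higher. Of 168 counts over the companion lists under alternatives, 131 stayed within 1.5 times of the main count and 37 did not. After adjustment for transcript properties, lower calls went from 11 to 15 among messenger ribonucleoprotein genes and from 3 to 4 among YB-1 modifiers. They went from 5 to 6 among YB-1 regulated genes and from 5 to 6 among let-7 targets. Over all genes, 3225 were lower after adjustment, against 3341 in the main setting. Depth limits YBX2, LIN28A, CSDC2 and the let-7 loci, whose counts are few.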
